A study of Homo sapiens with 9 samples.

Results

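Lysosomal hydrolases other than the cathepsins were followed in MCF10A cells, an immortalised, non-tumorigenic line of human breast epithelial cells. The 39 genes are a list fixed by name: acid glycosidases, sphingolipid hydrolases with their activator proteins, sulfatases, peptidases, nucleases and phosphatases, lipid-handling enzymes, the lysosomal cholesterol carrier NPC2 and the glycoprotein CREG1. The rule names genes and uses no expression value, although the list was drawn up with earlier results of these data known. All 39 were found among the 56609 gene symbols of the table, each as a single entry. There were 3 groups. High calcium cells received 10 mM calcium together with ionomycin, a calcium ionophore labelled at 1 mM, for 16 h. TGFb3 cells received the growth factor TGFb3 at 10 nM for 16 h. Control cells were untreated. Each group had 3 samples, 9 in all, and every group was the same line in the same growth medium. Whether the samples of a group are separate cultures is not labelled, and p-values therefore reflect the spread among these samples alone.

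Lysosomal hydrolases are made in the endoplasmic reticulum, most are given a mannose phosphate tag in the Golgi, and receptors carry them to the lysosome, where the acid interior lets them break down glycans, lipids, proteins and nucleic acids. Loss of a single enzyme leaves its substrate undigested and causes a lysosomal storage disease. Many of these genes carry the letters CACGTG near their start, the core of an element that the transcription factor TFEB and its relatives bind.

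Values are the deposited TPM, transcript levels per length that add up to 1000000 in every sample, so the number of reads behind a value is unknown. Differences were tested with limma on log2(TPM + 1) across 13968 symbols, those averaging 1 TPM or more, and a gene was called at a Benjamini-Hochberg adjusted p under 0.05. The filter kept 37 of the 39 hydrolases. GALC and ACP5 fell below it. Both treatments were set against the same 3 control samples. Since a log2(TPM + 1) difference understates the change of low genes, ratios of mean TPM are given for some of them.

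Mitochondrially encoded transcripts took on average 11.5% of all TPM in high calcium, 22.7% in TGFb3 and 22.7% in the controls, and the median over all genes tested of the log2 difference from control stood at 0.22 in high calcium and at -0.06 in TGFb3, with 0.27 between the treatments. Each comparison was therefore repeated after dividing each sample by its median ratio to the mean profile (median ratio rescaling), after quantile normalisation, and with the mitochondrially encoded genes left out. The 8 basal epithelial markers KRT5, KRT6A, KRT14, KRT17, TP63, EGFR, ITGA6 and CDH1 were detected in every sample. Their sum averaged 6968 TPM in high calcium, 6335 TPM in TGFb3 and 3749 TPM in the controls, while ITGA6 alone averaged 219, 547 and 297 TPM. Of 4 luminal markers, PGR was listed at 0 in all 9 samples, ESR1 stayed under 1 TPM, and FOXA1 and GATA3 were detected in every sample. Of 10 macrophage markers, a cell type rich in lysosomes, PTPRC, CD163, TYROBP and AIF1 were listed at 0 in all 9 samples and 7 stayed under 1 TPM. The remaining CD14, CD68 and CSF1R were detected and did not move together. CD14 averaged 36.0 TPM in high calcium, 2.55 TPM in TGFb3 and 20.0 TPM in the controls, CD68 24.8, 11.03 and 2.04 TPM, and CSF1R 4.07, 8.05 and 0.702 TPM. The summed macrophage list ran from 57.7 to 78.3 TPM in high calcium, from 20.0 to 23.0 TPM in TGFb3 and from 20.5 to 24.2 TPM in the controls, and without CD68 from 36.3 to 43.8, from 9.48 to 11.6 and from 19.1 to 21.9 TPM. Of 6 fibroblast markers, LUM, PDGFRA, PDGFRB and COL3A1 stayed under 1 TPM in all 9 samples. The list summed to 9.99 to 12.6 TPM in high calcium, 28.5 to 32.0 TPM in TGFb3 and 2.60 to 3.52 TPM in the controls. Most of that sum was DCN, averaging 7.9, 13.9 and 2.3 TPM in the same order, and COL1A1, averaging 2.6, 15.6 and 0.80 TPM. Of the nuclear RNAs read as signs of RNA quality, MALAT1 averaged 424 TPM in high calcium, 204 TPM in TGFb3 and 158 TPM in the controls, and NEAT1 82.0, 28.6 and 33.1 TPM. The part of any of these in the results was not tested. In bulk RNA, a change in the number of cells of a type and a change in RNA per cell cannot be told apart.

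**Figure D1:**
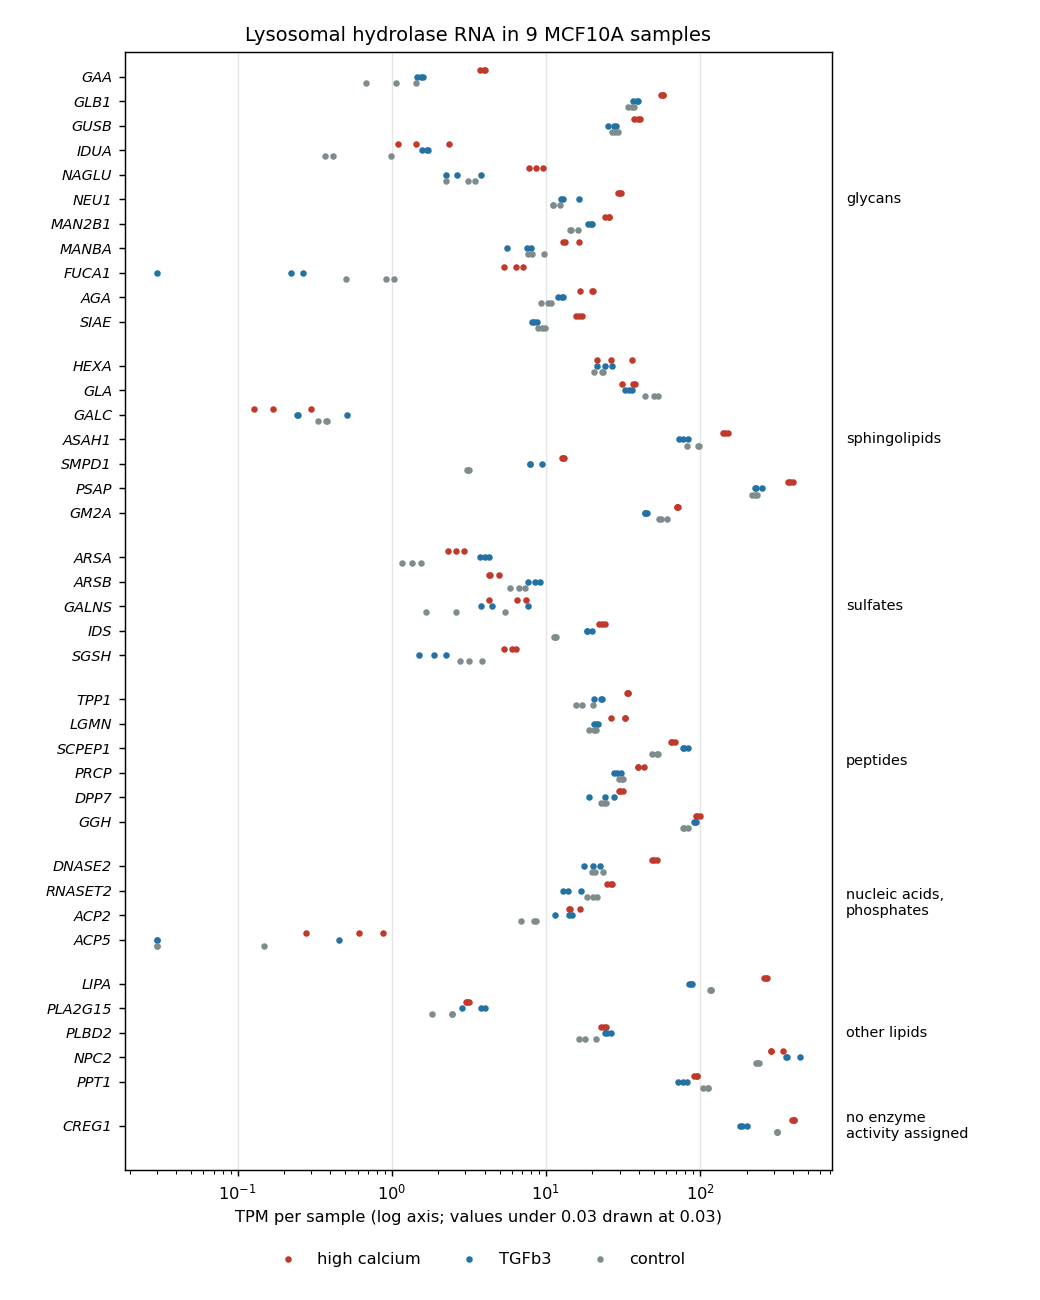
TPM of the 39 hydrolase genes in each of the 9 samples, on a log axis, with high calcium, TGFb3 and control points in different colours; values under 0.03 are drawn at 0.03. Levels spread from ACP5 and GALC, under 1 TPM in every sample, to CREG1, NPC2, PSAP and LIPA at the top.

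The hydrolases differed widely in level. By mean TPM in the controls, 5 members lay at 100 TPM or more, 19 between 10 and 100, 11 between 1 and 10, and 4 under 1. CREG1, NPC2, PSAP, LIPA and PPT1 formed the top class, and GALC, ACP5, IDUA and FUCA1 the bottom one. The TPM of all 39 genes summed to 2411, 2467 and 2406 in high calcium, to 1760, 1640 and 1658 in TGFb3, and to 1673, 1680 and 1665 in the controls. All 3 high calcium sums lay above all others, while the TGFb3 and control sums overlapped. The ratio of mean sums was 1.45 for high calcium against control and 1.01 for TGFb3 against control, and 1.27 and 1.01 with mitochondrially encoded genes left out. By substrate, the summed glycan enzymes had a ratio of 1.79 in high calcium and 1.07 in TGFb3, the nucleases and phosphatases 1.86 and 0.98, and the sulfatases 1.63 and 1.49.

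**Figure D2:**
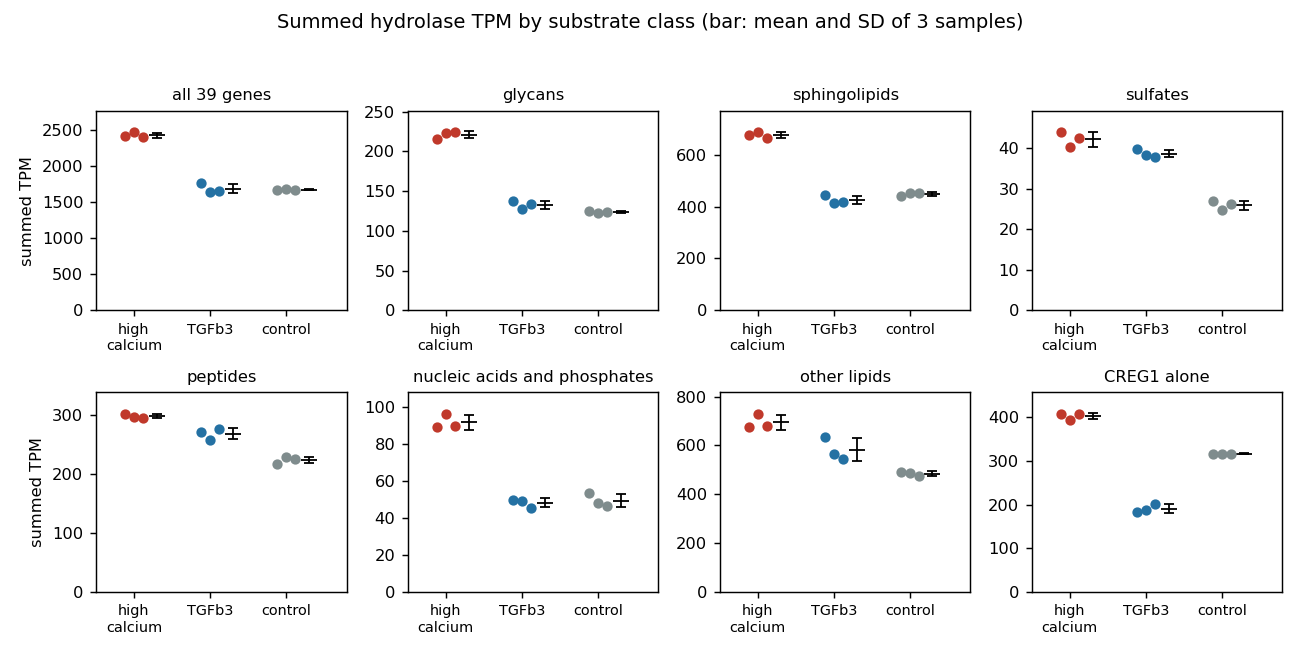
Summed TPM of all 39 hydrolases, of 6 substrate classes and of CREG1 alone in high calcium, TGFb3 and control samples; points are samples and bars the mean and SD of 3. The high calcium sums lay above the control sums in every panel, whereas TGFb3 sums were above the controls for glycans, sulfates, peptides and other lipids, below them for CREG1, and overlapped them in the other panels.

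High calcium raised most of the hydrolases. Of the 37 tested, 31 rose, 3 fell and 3 were not called, whereas 46.1% of all tested genes were called higher and 17% called lower. With median ratio rescaling the split became 23 higher and 3 lower against a background of 30.4% and 29.9%. Quantile normalisation gave 24 higher and 3 lower, against 28.6% and 32% of all genes, and leaving out mitochondrially encoded genes gave 26 and 3, against 32.3% and 26.4%. The median log2 difference of the members was 0.65 as deposited and 0.46 after median ratio rescaling, where the median of all tested genes was 0.01. It was 0.36 after quantile normalisation, with -0.04 for all genes, and 0.51 with mitochondrially encoded genes left out, with 0.05 for all genes. Under all 4 scalings 20 hydrolases were called higher (GAA, GLB1, GUSB, NAGLU, NEU1, MAN2B1, MANBA, FUCA1, AGA, SIAE, ASAH1, SMPD1, PSAP, IDS, TPP1, LGMN, PRCP, DNASE2, ACP2 and LIPA) and 3 lower (GLA, ARSB and PPT1). The high calcium samples lay wholly above the controls for 33 of the 39 genes, against 49.4% of all tested genes, and wholly below them for 4, against 19.6%. A rise of at least 1 on the log2 scale was called for 7 members and for 10.5% of all tested genes, and a fall of that size for 0 members and 2.56% of all genes.

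TGFb3 moved the same genes in both directions, as it did the tested genes as a whole. Against control 14 of the 37 were called higher, 9 lower and 14 neither, beside a background of 26.5% called higher and 33.1% lower. The median log2 difference of the members was 0.10. After median ratio rescaling 16 rose and 8 fell, with 29.2% and 30.3% of all genes. The counts were 14 higher and 9 lower after quantile normalisation, with 27.2% and 32.7% of all genes, and again 14 and 9 with mitochondrially encoded genes left out, with 26.1% and 32.5%. The TGFb3 samples lay wholly above the controls for 16 of the 39, against 28.4% of all tested genes, and wholly below for 9, against 35.4%. SMPD1 and ARSA were the members that rose by a log2 difference of at least 1, as 6.19% of all tested genes did; 0 members and 4.07% of all genes fell by that much.

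The direct comparison of the treatments gave 25 hydrolases higher and 4 lower in high calcium than in TGFb3, with a background of 50.4% and 16.2%. After median ratio rescaling it gave 21 higher and 8 lower, with 30.1% and 30.2% of all genes. Quantile normalisation gave 21 and 7, with 31.2% and 29.9%, and leaving out mitochondrially encoded genes gave 22 and 6, with 35.5% and 24.1%. A difference of at least 1 was called higher for 7 members and 10.7% of all genes, and lower for 0 members and 3.64%. Samples did not overlap for 26 higher members and 4 lower ones, against 53.1% and 18.1% of all tested genes. ARSB, ARSA, NPC2 and SCPEP1 were the 4 lower in high calcium, under all 4 scalings.

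**Figure D3:**
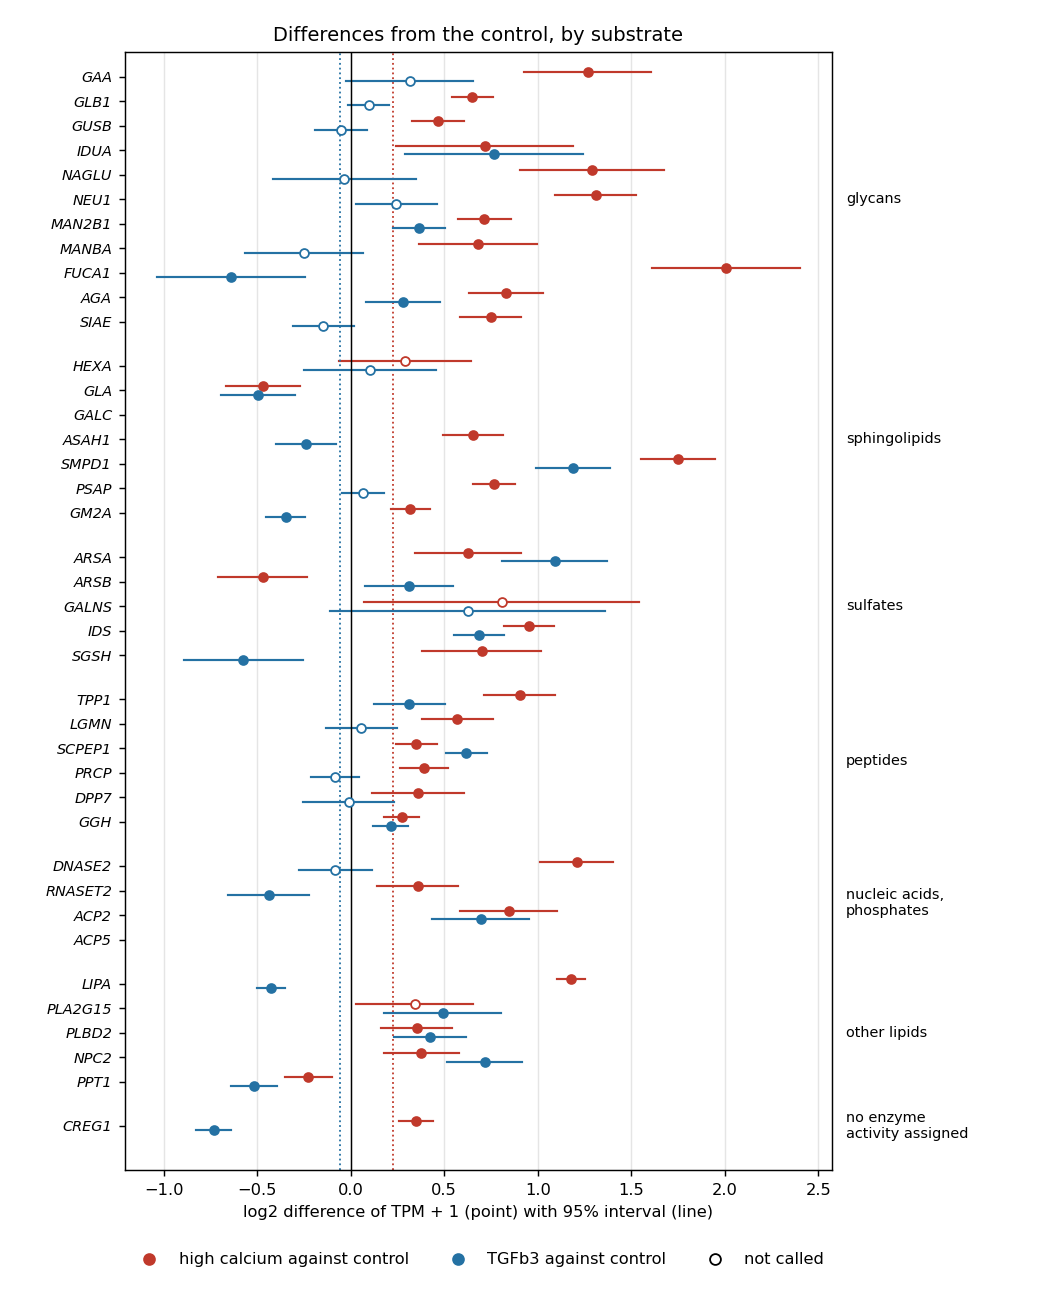
Log2 differences of log2(TPM + 1) with 95% intervals for the 37 tested hydrolases, high calcium against control above TGFb3 against control in each row (the rows of GALC and ACP5 are empty); filled points were called, open points were not, and the dotted lines are the medians of all tested genes (0.22 and -0.06). Most members lie right of their line in high calcium and on both sides of it in TGFb3; 8 of the 31 higher calls in high calcium were lost after median ratio rescaling.

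Promoter windows of 250 bases before to 50 bases after the gene start were present in RefSeq (GRCh38.p14) for 30 of the 39 members. CACGTG, which reads the same on both strands, stood in the windows of 8 of the 30 (26.7%) and of 8.78% of 27305 genes. With a flanking base, TCACGTG on either strand, which always contains CACGTG, stood in 7 of 30 (23.3%) and in 4.49% of all genes. TGATGNAAN stood in 1, DNASE2, and in 4.45% of all genes, and the endoplasmic reticulum stress element (CCAAT, then 9 free bases, then CCACG) in 0 and 0.0916%, both searched on both strands. In high calcium, where 46.1% of all tested genes were called higher, 5 of the 7 tested members with CACGTG rose, 1 fell and 1 was not called, beside 18, 2 and 1 of the 21 tested members whose windows lacked it. After median ratio rescaling, with 30.4% of all genes called higher, 2 of the 7 rose (GAA and NEU1), beside 14 of the 21. In TGFb3, with a background of 26.5% higher and 33.1% lower, 3 of the 7 rose and 0 fell, beside 9 and 7 of the 21. These matches describe letters only. The stretches below hold every CACGTG found, in capitals, with up to 30 bases on each side and none past the start, so that the holders can be read against their values; SMPD1, which rose under both treatments, is given as the bases before its start, with no such letters. Each runs 5′ to 3′ on the strand of its gene.
NEU1, chr6:31862912-31862977, minus strand: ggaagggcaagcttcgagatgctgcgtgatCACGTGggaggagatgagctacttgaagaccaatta
GAA, chr17:80101475-80101580, plus strand: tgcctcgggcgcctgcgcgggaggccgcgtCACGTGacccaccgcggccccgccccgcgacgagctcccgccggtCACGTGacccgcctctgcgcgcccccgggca
DPP7, chr9:137114734-137114822, minus strand: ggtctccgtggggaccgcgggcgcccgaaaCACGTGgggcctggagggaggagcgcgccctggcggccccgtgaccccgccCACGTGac
SCPEP1, chr17:56978074-56978130, plus strand: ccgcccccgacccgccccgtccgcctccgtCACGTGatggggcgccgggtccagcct
PLBD2, chr12:113358533-113358586, plus strand: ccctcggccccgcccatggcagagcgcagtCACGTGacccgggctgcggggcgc
GALNS, chr16:88856948-88857151, minus strand: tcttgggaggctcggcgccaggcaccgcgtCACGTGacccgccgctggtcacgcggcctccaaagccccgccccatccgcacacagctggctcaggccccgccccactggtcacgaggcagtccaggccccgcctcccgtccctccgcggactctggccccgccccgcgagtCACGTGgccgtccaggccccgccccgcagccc
ARSB, chr5:78986083-78986148, minus strand: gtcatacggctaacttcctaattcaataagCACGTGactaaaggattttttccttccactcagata
ACP5, chr19:11577791-11577856, minus strand: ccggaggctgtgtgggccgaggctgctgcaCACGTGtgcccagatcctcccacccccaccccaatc
SMPD1, chr11:6390374-6390473, plus strand: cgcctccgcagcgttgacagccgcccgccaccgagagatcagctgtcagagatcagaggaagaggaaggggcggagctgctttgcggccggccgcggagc

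All 11 glycan enzymes rose in high calcium, with log2 differences from 0.47 to 2.01, and all 11 were still called higher after median ratio rescaling and with mitochondrially encoded genes left out; quantile normalisation left out IDUA. Of all tested genes 46.1% were called higher as deposited and 30.4% after median ratio rescaling. FUCA1, the alpha-fucosidase, changed most. It had 6.35, 7.14 and 5.37 TPM in high calcium, 0, 0.266 and 0.222 TPM in TGFb3, and 0.502, 1.04 and 0.920 TPM in the controls. The 3 groups did not overlap, high calcium being highest and TGFb3 lowest. FUCA1 rose by a log2 difference of 2.01 ± 0.18 in high calcium (SE, n = 3 each; adjusted p = 5.1e-06), 1.78 above the median of all genes, and its mean TPM ratio was 7.68. In TGFb3 it fell by 0.64 ± 0.18 (adjusted p = 0.01), a call that was lost with a pseudocount of 5.

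NEU1, the lysosomal sialidase whose promoter stretch holds 1 CACGTG, had 29.99, 29.3 and 30.7 TPM in high calcium, 16.4, 12.5 and 12.8 TPM in TGFb3, and 12.3, 11.2 and 11.1 TPM in the controls. High calcium stood clear of both other groups, and TGFb3 lay just above the controls. The log2 difference in high calcium was 1.31 ± 0.097 (adjusted p = 1.5e-06), 1.09 above the median of all genes. In TGFb3 NEU1 was not called (0.24, adjusted p = 0.053), but was after median ratio rescaling (0.29) and without control 1 (0.29), TGFb3 2 (0.31) or TGFb3 3 (0.29).

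GAA, the acid alpha-glucosidase that digests glycogen, has a pair of CACGTG in its stretch. It had 4.04, 3.94 and 3.72 TPM in high calcium, 1.55, 1.60 and 1.46 TPM in TGFb3, and 1.06, 0.681 and 1.44 TPM in the controls. Levels were low, yet every high calcium sample was above every other sample. It rose by 1.27 ± 0.15 in high calcium (adjusted p = 4.9e-05), with a mean TPM ratio of 3.68. In TGFb3 its difference of 0.31 was not called (adjusted p = 0.1), and it was called without control 3 (0.44).

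NAGLU, which removes N-acetylglucosamine from heparan sulfate, had 8.58, 7.71 and 9.57 TPM in high calcium, 3.76, 2.24 and 2.64 TPM in TGFb3, and 3.14, 2.25 and 3.49 TPM in the controls. High calcium lay above both groups, which overlapped each other. Its log2 difference was 1.29 ± 0.17 in high calcium (adjusted p = 1e-04) and -0.03 in TGFb3 (adjusted p = 0.88).

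MANBA and SIAE, a beta-mannosidase and a sialic acid esterase, were also highest in high calcium. MANBA had 12.97, 16.4 and 13.3 TPM in high calcium, 7.96, 7.49 and 5.56 TPM in TGFb3, and 9.72, 8.10 and 7.62 TPM in the controls. SIAE had 15.6, 17.2 and 16.5 TPM in high calcium, 8.10, 8.70 and 8.31 TPM in TGFb3, and 9.40, 8.84 and 9.91 TPM in the controls. High calcium did not overlap the other groups for either gene. The TGFb3 and control samples overlapped for MANBA, while for SIAE all TGFb3 samples lay just below the controls. MANBA rose by 0.68 and SIAE by 0.75 in high calcium, and neither was called in TGFb3. TBRG1 and SPA17 overlap SIAE on the opposite strand. TBRG1 averaged 33.6 TPM in high calcium, 29.9 TPM in TGFb3 and 27.3 TPM in the controls, and SPA17 21.2, 17.9 and 15.9 TPM. The part of their reads in the SIAE values was not tested.

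AGA, which cuts the link between sugar and asparagine, and MAN2B1, the alpha-mannosidase, rose under both treatments. AGA had 19.8, 16.6 and 20.1 TPM in high calcium, 11.9, 12.8 and 12.8 TPM in TGFb3, and 10.8, 10.2 and 9.34 TPM in the controls. MAN2B1 had 24.2, 25.7 and 25.5 TPM in high calcium, 20.0, 18.8 and 19.7 TPM in TGFb3, and 14.3, 14.5 and 16.0 TPM in the controls. For both genes the groups stood in 3 steps with no overlap. AGA differed from control by 0.83 in high calcium and 0.28 in TGFb3 (adjusted p = 0.019), and the TGFb3 call was lost without control 3 (0.23), TGFb3 2 (0.26) or TGFb3 3 (0.26). MAN2B1 differed by 0.71 and 0.36. Its excess in high calcium over TGFb3 (0.35) was not called after median ratio rescaling (0.07) or quantile normalisation (0.11).

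IDUA, the iduronidase, was low throughout, with 1.44, 1.09 and 2.34 TPM in high calcium, 1.73, 1.58 and 1.69 TPM in TGFb3, and 0.368, 0.415 and 0.986 TPM in the controls. Both treated groups were above the controls and overlapped each other. It rose by 0.72 in high calcium (adjusted p = 0.014) and 0.77 in TGFb3 (adjusted p = 0.01). The high calcium call was lost after quantile normalisation (0.34) and without control 1 (0.62) or high calcium 3 (0.53).

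GLB1, the beta-galactosidase and the most abundant glycan enzyme, had 55.6, 57.4 and 57.4 TPM in high calcium, 38.8, 36.8 and 39.7 TPM in TGFb3, and 34.3, 37.1 and 36.2 TPM in the controls. Only high calcium stood apart, at a log2 difference of 0.65 ± 0.049 (adjusted p = 1.7e-06). In TGFb3 its 0.10 was not called as deposited and was called after median ratio rescaling (0.14) and quantile normalisation (0.16). GUSB, the beta-glucuronidase, rose by 0.47 in high calcium and was not called in TGFb3; it has near-identical pseudogene copies, so its reads may be shared.

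**Figure D4:**
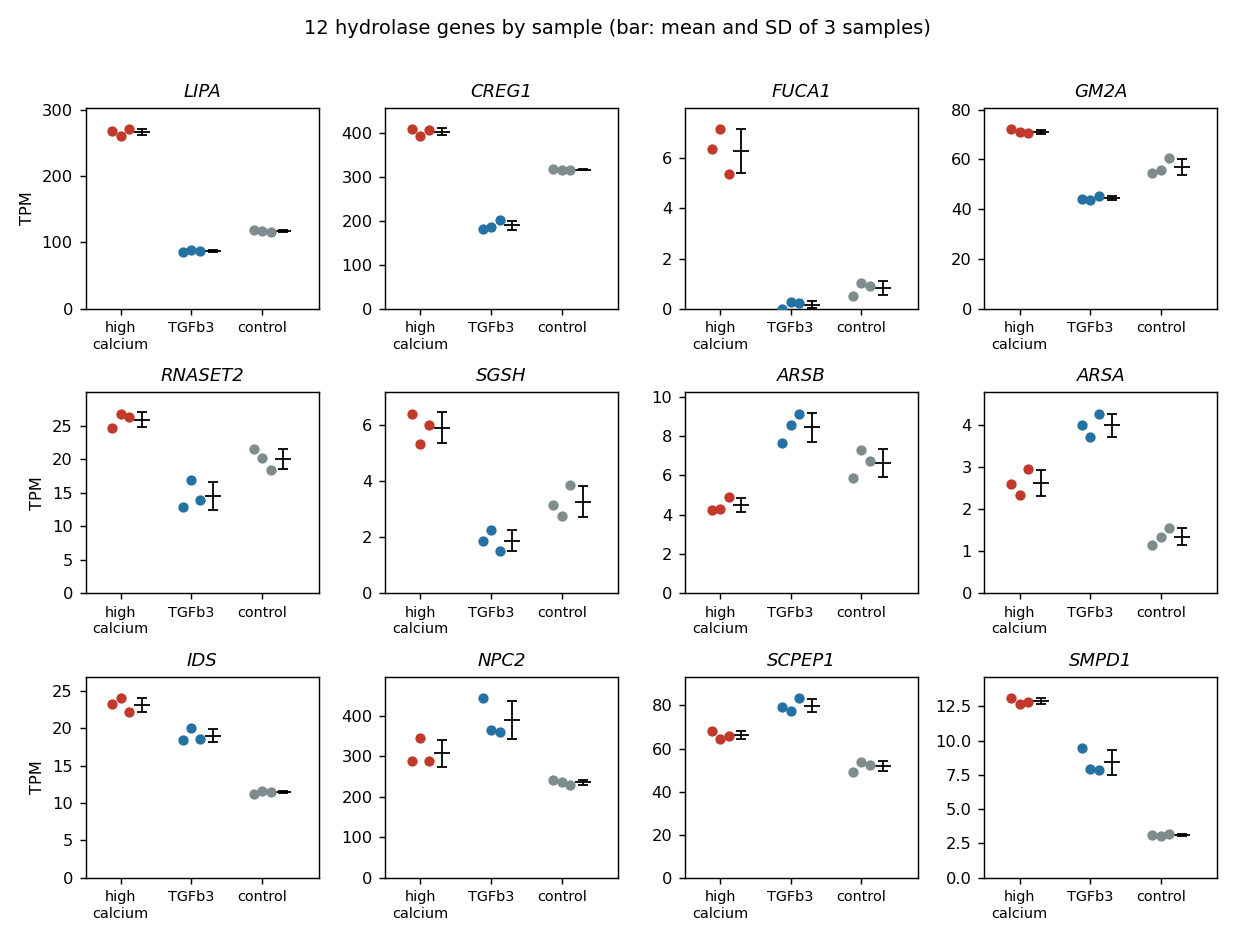
TPM of 12 hydrolase genes in high calcium, TGFb3 and control, 1 panel a gene with its own axis from 0; points are samples and bars the mean and SD of 3. Panels show genes highest in high calcium, such as LIPA and FUCA1, beside genes highest in TGFb3, such as ARSB and NPC2.

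Of the 6 sphingolipid genes tested, 4 rose, 1 fell and 1 was not called in high calcium, and 1 rose, 3 fell and 2 were not called in TGFb3. The all-gene shares were 46.1% higher and 17% lower in high calcium, and 26.5% and 33.1% in TGFb3. After median ratio rescaling 3 rose and 1 fell in high calcium, and 1 rose and 2 fell in TGFb3. SMPD1, the acid sphingomyelinase that releases ceramide, rose most under both. It had 13.1, 12.6 and 12.8 TPM in high calcium, 9.49, 7.94 and 7.83 TPM in TGFb3, and 3.13, 3.06 and 3.16 TPM in the controls. The 3 groups were separate, with little spread inside each. SMPD1 rose by 1.75 ± 0.089 in high calcium (adjusted p = 1.1e-07) and by 1.19 ± 0.089 in TGFb3 (adjusted p = 1.7e-06), and its mean TPM ratios were 4.12 and 2.699. High calcium exceeded TGFb3 by 0.56 (adjusted p = 3e-04).

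ASAH1, the acid ceramidase, which acts on the product of SMPD1, had 145, 151 and 139.8 TPM in high calcium, 77.2, 73.3 and 83.1 TPM in TGFb3, and 98.2, 96.2 and 82.4 TPM in the controls. High calcium was well above the rest, while 1 control sample lay inside the TGFb3 range. It rose by 0.65 ± 0.071 in high calcium (adjusted p = 2.4e-05). In TGFb3 it fell by 0.24 (adjusted p = 0.015), a call that was lost after median ratio rescaling (-0.19) and without control 1 (-0.19), control 2 (-0.21) or TGFb3 2 (-0.20).

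PSAP encodes the precursor of the saposins, the small proteins that present sphingolipids to their enzymes. It had 382, 399.9 and 369 TPM in high calcium, 251, 229 and 228 TPM in TGFb3, and 217, 225 and 233 TPM in the controls. Only high calcium stood apart, with a log2 difference of 0.77 ± 0.050 (adjusted p = 5.8e-07) against 0.06 in TGFb3 (adjusted p = 0.29). GM2A, the activator that lifts a ganglioside out of the membrane for hexosaminidase, had 72.0, 71.0 and 70.5 TPM in high calcium, 44.2, 43.8 and 45.4 TPM in TGFb3, and 54.5, 55.7 and 60.6 TPM in the controls. Its 3 groups did not overlap. GM2A rose by 0.32 in high calcium, a call that was lost after median ratio rescaling (0.08), and fell by 0.35 in TGFb3. CCDC69, which overlaps GM2A on the opposite strand, averaged 16.1 TPM in high calcium, 7.37 TPM in TGFb3 and 7.90 TPM in the controls. The part of its reads in the GM2A values was not tested.

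GLA, the alpha-galactosidase that removes the end sugar of globosides, went the other way. It had 36.9, 31.1 and 37.6 TPM in high calcium, 34.7, 36.1 and 32.4 TPM in TGFb3, and 43.9, 50.3 and 52.9 TPM in the controls. Every treated sample was below every control, and the treated groups overlapped. GLA fell by 0.47 ± 0.088 in high calcium (adjusted p = 0.0011) and by 0.50 ± 0.088 in TGFb3 (adjusted p = 7.5e-04). RPL36A-HNRNPH2, which overlaps GLA on the opposite strand, averaged 28.4 TPM in high calcium (2.51 to 49.95), 7.45 TPM in TGFb3 and 4.41 TPM in the controls. The part of its reads in the GLA values was not tested. HEXA, a hexosaminidase subunit, was not called as deposited (0.29 and 0.10). Its high calcium samples ran from 21.6 to 36.3 TPM, and it was called in high calcium without high calcium 2 (0.46). GALC, the galactosylceramidase, was under 1 TPM in all 9 samples.

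The sulfatases strip sulfate from glycosaminoglycans and sulfatide. In high calcium 3 rose (ARSA, IDS and SGSH), ARSB fell and GALNS was not called, and in TGFb3 3 rose (ARSA, IDS and ARSB), SGSH fell and GALNS was not called. Called higher among all genes were 46.1% in high calcium and 26.5% in TGFb3, and called lower 17% and 33.1%. After quantile normalisation 1 sulfatase, IDS, was still called higher in high calcium, against 28.6% of all genes. ARSB, which desulfates dermatan and chondroitin sulfate, had 4.26, 4.31 and 4.92 TPM in high calcium, 7.67, 8.55 and 9.14 TPM in TGFb3, and 5.89, 7.29 and 6.71 TPM in the controls. The groups were separate, with TGFb3 highest and high calcium lowest. ARSB fell by 0.47 ± 0.11 in high calcium (adjusted p = 0.003). In TGFb3 it rose by 0.31 (adjusted p = 0.028), a call that was lost after quantile normalisation (0.27), with no filter on low values (0.31), and without control 1 (0.24), TGFb3 2 (0.30) or TGFb3 3 (0.26). The difference between the treatments was -0.78 ± 0.11 (adjusted p = 1e-04).

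ARSA, the sulfatide sulfatase, had 2.61, 2.33 and 2.96 TPM in high calcium, 3.999, 3.73 and 4.27 TPM in TGFb3, and 1.16, 1.35 and 1.55 TPM in the controls. Both treatments were above control and TGFb3 was above high calcium, with no overlap. ARSA rose by 1.09 ± 0.13 in TGFb3 (adjusted p = 3.8e-05). Its rise of 0.63 in high calcium was not called after quantile normalisation (0.23).

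IDS, the iduronate sulfatase, had 23.2, 24.04 and 22.2 TPM in high calcium, 18.5, 20.0 and 18.6 TPM in TGFb3, and 11.3, 11.6 and 11.5 TPM in the controls. Both treated groups were clear of the controls. IDS rose by 0.95 ± 0.060 in high calcium (adjusted p = 4.9e-07) and by 0.69 ± 0.060 in TGFb3 (adjusted p = 5.1e-06); it has a near-identical pseudogene copy. Its excess in high calcium over TGFb3 (0.27) turned to -0.01 after median ratio rescaling and was not called there.

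SGSH, which removes sulfate from the nitrogen of heparan sulfate, had 6.41, 5.32 and 5.99 TPM in high calcium, 1.87, 2.24 and 1.495 TPM in TGFb3, and 3.17, 2.77 and 3.87 TPM in the controls. The treatments lay on opposite sides of the controls without overlap. It rose by 0.70 in high calcium (adjusted p = 0.0017), a call that was lost after quantile normalisation (0.30), and fell by 0.57 in TGFb3 (adjusted p = 0.0059). SGSH overlaps SLC26A11, which averaged 2.87 TPM in high calcium, 1.26 TPM in TGFb3 and 1.07 TPM in the controls. Whether the libraries kept strand is not given, so reads of overlapping genes cannot be told apart.

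GALNS, which desulfates keratan sulfate, varied inside each group, at 7.43, 4.27 and 6.46 TPM in high calcium, 7.65, 3.81 and 4.45 TPM in TGFb3, and 5.402, 1.68 and 2.61 TPM in the controls. All groups overlapped. Its log2 difference of 0.81 in high calcium was as large as that of several called genes but was not called (adjusted p = 0.054). It was called in high calcium without control 1 (1.15), high calcium 2 (1.00) or TGFb3 1 (0.81), and in TGFb3, where the difference was 0.63, without control 1 (0.97). With the replicate number added to the fit, GALNS was called in high calcium (adjusted p = 0.0022) and in TGFb3 (adjusted p = 0.0083). TRAPPC2L, which overlaps GALNS on the opposite strand, averaged 15.3 TPM in high calcium, 21.4 TPM in TGFb3 and 21.2 TPM in the controls. The part of its reads in the GALNS values was not tested.

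All 6 peptidases and related enzymes rose in high calcium and 3 did in TGFb3; after median ratio rescaling the high calcium count was 3. The share of all tested genes called higher was 46.1% in high calcium, 30.4% there after rescaling, and 26.5% in TGFb3. TPP1, a tripeptidyl peptidase, had 33.3, 34.0 and 33.9 TPM in high calcium, 23.1, 20.4 and 22.9 TPM in TGFb3, and 17.2, 15.7 and 20.1 TPM in the controls. The groups formed 3 steps. TPP1 rose by 0.90 ± 0.085 in high calcium (adjusted p = 8.3e-06) and 0.31 in TGFb3 (adjusted p = 0.0092).

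SCPEP1, a serine carboxypeptidase with 1 CACGTG in its stretch, had 68.2, 64.4 and 66.0 TPM in high calcium, 79.1, 77.3 and 83.4 TPM in TGFb3, and 49.1, 53.7 and 52.5 TPM in the controls. TGFb3 was the highest group, with no overlap. It rose by 0.62 ± 0.049 in TGFb3 (adjusted p = 2.5e-06) and by 0.35 in high calcium, where the call was lost after median ratio rescaling (0.11).

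GGH, which trims glutamates from folates and was the most abundant of the class, had 94.9, 94.5 and 100.1 TPM in high calcium, 91.8, 92.0 and 94.1 TPM in TGFb3, and 77.5, 83.5 and 78.4 TPM in the controls. Both treatments lay above the controls by small amounts, 0.27 in high calcium and 0.21 in TGFb3. In high calcium GGH sat 0.05 above the median of all genes, and its call was lost under each of the 3 other scalings. Against TGFb3 the uncalled 0.06 turned to a called -0.23 after median ratio rescaling.

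DPP7, a dipeptidyl peptidase with a pair of CACGTG, had 30.2, 31.8 and 29.7 TPM in high calcium, 27.8, 19.1 and 24.1 TPM in TGFb3, and 23.6, 22.6 and 24.6 TPM in the controls. High calcium was above the other groups, which overlapped. Its rise of 0.36 in high calcium (adjusted p = 0.016) was not called under the 3 other scalings, nor without control 2 (0.33) or high calcium 2 (0.33). LGMN, the asparagine endopeptidase legumain, and PRCP, which cuts after proline, rose in high calcium by 0.57 and 0.39, were called there under all 4 scalings and were not called in TGFb3. DDIAS, which overlaps PRCP on the opposite strand, averaged 5.77 TPM in high calcium, 6.66 TPM in TGFb3 and 18.1 TPM in the controls. The part of its reads in the PRCP values was not tested.

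DNASE2, the acid nuclease that digests DNA delivered to lysosomes, had 50.3, 52.5 and 48.4 TPM in high calcium, 22.5, 17.7 and 20.1 TPM in TGFb3, and 23.3, 20.7 and 19.9 TPM in the controls. All high calcium samples were above all others, and TGFb3 and control overlapped. It rose by 1.21 ± 0.088 in high calcium (adjusted p = 1.3e-06), 0.98 above the median of all genes, and was not called in TGFb3 (-0.08, adjusted p = 0.45). Its partner for RNA, RNASET2, had 24.7, 26.8 and 26.2 TPM in high calcium, 12.9, 16.9 and 13.9 TPM in TGFb3, and 21.5, 20.2 and 18.4 TPM in the controls. The treatments lay on either side of the controls. RNASET2 fell by 0.44 in TGFb3 (adjusted p = 0.0028), and its rise of 0.36 in high calcium was not called under the 3 other scalings.

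ACP2, the lysosomal acid phosphatase, had 14.1, 16.7 and 14.3 TPM in high calcium, 14.1, 14.8 and 11.5 TPM in TGFb3, and 8.58, 6.88 and 8.35 TPM in the controls. Both treated groups were above the controls and overlapped each other. It rose by 0.84 in high calcium (adjusted p = 1.2e-04) and 0.69 in TGFb3 (adjusted p = 5e-04). NR1H3, which overlaps ACP2 on the opposite strand, averaged 4.17 TPM in high calcium, 1.335 TPM in TGFb3 and 2.43 TPM in the controls. ACP5, the phosphatase known from osteoclasts and macrophages, had 0.279, 0.615 and 0.882 TPM in high calcium, 0.452, 0 and 0 TPM in TGFb3, and 0, 0.149 and 0 TPM in the controls. It stayed under 1 TPM everywhere, and was called in high calcium (0.59, adjusted p = 0.04) when no filter on low values was used. ZNF627, which overlaps ACP5 on the opposite strand, averaged 17.99 TPM in high calcium, 13.11 TPM in TGFb3 and 10.86 TPM in the controls. The part of reads from overlapping genes in the ACP2 and ACP5 values was not tested.

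LIPA, the acid lipase that frees cholesterol from its esters, had the smallest adjusted p of the members in high calcium. It had 268, 261 and 270.1 TPM in high calcium, 84.9, 88.5 and 87.6 TPM in TGFb3, and 118, 117 and 116 TPM in the controls. The treatments lay far to either side of narrow controls. LIPA rose by 1.18 ± 0.034 in high calcium (adjusted p = 2.8e-09), 0.95 above the median of all genes, fell by 0.43 ± 0.034 in TGFb3 (adjusted p = 2.7e-06), and differed by 1.60 between the treatments (adjusted p = 3.6e-10). Annotated on the minus strand at chr10:89213569-89414557 (hg38), it overlaps the interferon-induced genes IFIT1, IFIT2 and IFIT3 on the opposite strand. IFIT2 averaged 20.9 TPM in high calcium, 1.89 TPM in TGFb3 and 5.09 TPM in the controls, and IFIT3 17.3, 4.54 and 6.45 TPM. The part of their reads in the LIPA values was not tested.

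NPC2, which takes the freed cholesterol to the limiting membrane, was highest in TGFb3. It had 289, 345 and 287 TPM in high calcium, 443, 365 and 359 TPM in TGFb3, and 242, 235 and 229 TPM in the controls. The 3 groups did not overlap. NPC2 rose by 0.72 ± 0.089 in TGFb3 (adjusted p = 6.6e-05) and by 0.38 in high calcium, where the call was lost after median ratio rescaling (0.14) and with mitochondrially encoded genes left out (0.18).

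PPT1, which removes palmitate from proteins, was lower in both treatments. It had 90.9, 95.6 and 96.1 TPM in high calcium, 77.2, 82.0 and 71.5 TPM in TGFb3, and 113, 113 and 105 TPM in the controls. The groups were separate, TGFb3 lowest. PPT1 fell by 0.23 in high calcium (adjusted p = 0.0053), 0.45 below the median of all genes, and by 0.52 in TGFb3 (adjusted p = 2.4e-05). The excess in high calcium over TGFb3 (0.29) was lost under the 3 other scalings. PPT1 overlaps CAP1, an actin regulator, which averaged 299 TPM in high calcium, 564 TPM in TGFb3 and 300.2 TPM in the controls.

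PLBD2, a phospholipase B-like protein with CACGTG in its stretch, had 23.9, 24.6 and 22.9 TPM in high calcium, 26.4, 24.8 and 24.1 TPM in TGFb3, and 16.4, 18.0 and 21.2 TPM in the controls. Both treatments were above control. It rose by 0.42 in TGFb3 and by 0.35 in high calcium, where the call was lost under the 3 other scalings. SLC8B1, which overlaps PLBD2 on the opposite strand, averaged 28.1 TPM in high calcium, 23.5 TPM in TGFb3 and 25.3 TPM in the controls. The part of its reads in the PLBD2 values was not tested. PLA2G15, the lysosomal phospholipase, rose by 0.49 in TGFb3 (adjusted p = 0.012) and was not called in high calcium (0.34, adjusted p = 0.055; -0.06 after quantile normalisation). The high calcium call appeared without TGFb3 3 (adjusted p = 0.037), with the compared groups alone (adjusted p = 0.049) and with no variance trend (adjusted p = 0.031). Over all alternatives its adjusted p ran from 0.031 to 0.77.

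CREG1, a glycoprotein of lysosomes that is also secreted and has no enzyme activity assigned here, was the most abundant member in high calcium and control. It had 408, 394 and 407 TPM in high calcium, 182, 187 and 201 TPM in TGFb3, and 317, 315 and 316 TPM in the controls. The treatments lay on opposite sides of closely grouped controls. CREG1 fell by 0.73 ± 0.041 in TGFb3 (adjusted p = 2.4e-07), with a mean TPM ratio of 0.601. It rose by 0.35 ± 0.041 in high calcium (adjusted p = 4.4e-05), a call that was lost after median ratio rescaling (0.11). Between the treatments the difference was 1.08 (adjusted p = 1.4e-08).

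Set side by side, with both treatments measured against the same controls, the hydrolases did not move as a block. ASAH1, CREG1, FUCA1, GM2A, LIPA, RNASET2 and SGSH were called higher in high calcium than in TGFb3 under all 4 scalings. As deposited, each of these rose in high calcium and fell in TGFb3, but the rise was lost for CREG1, GM2A and RNASET2 after median ratio rescaling, for RNASET2 and SGSH after quantile normalisation and for RNASET2 with mitochondrially encoded genes left out, and the fall was lost for ASAH1 after median ratio rescaling. Under all 4 scalings, FUCA1 and LIPA kept both calls. For FUCA1 the fall was between low means, 0.16 TPM in TGFb3 and 0.82 TPM in the controls, and was lost with a pseudocount of 5. For LIPA the part of reads from the overlapping IFIT genes was not tested. AGA, SMPD1 and TPP1 rose under both treatments and were higher in high calcium than in TGFb3 under all 4 scalings, whereas ARSA, NPC2 and SCPEP1 were lower in high calcium than in TGFb3. ARSB fell in high calcium under all 4 scalings and rose in TGFb3, where the call was lost after quantile normalisation and under some other alternatives. GLA and PPT1 fell under both treatments, in each case under all 4 scalings.

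**Figure D5:**
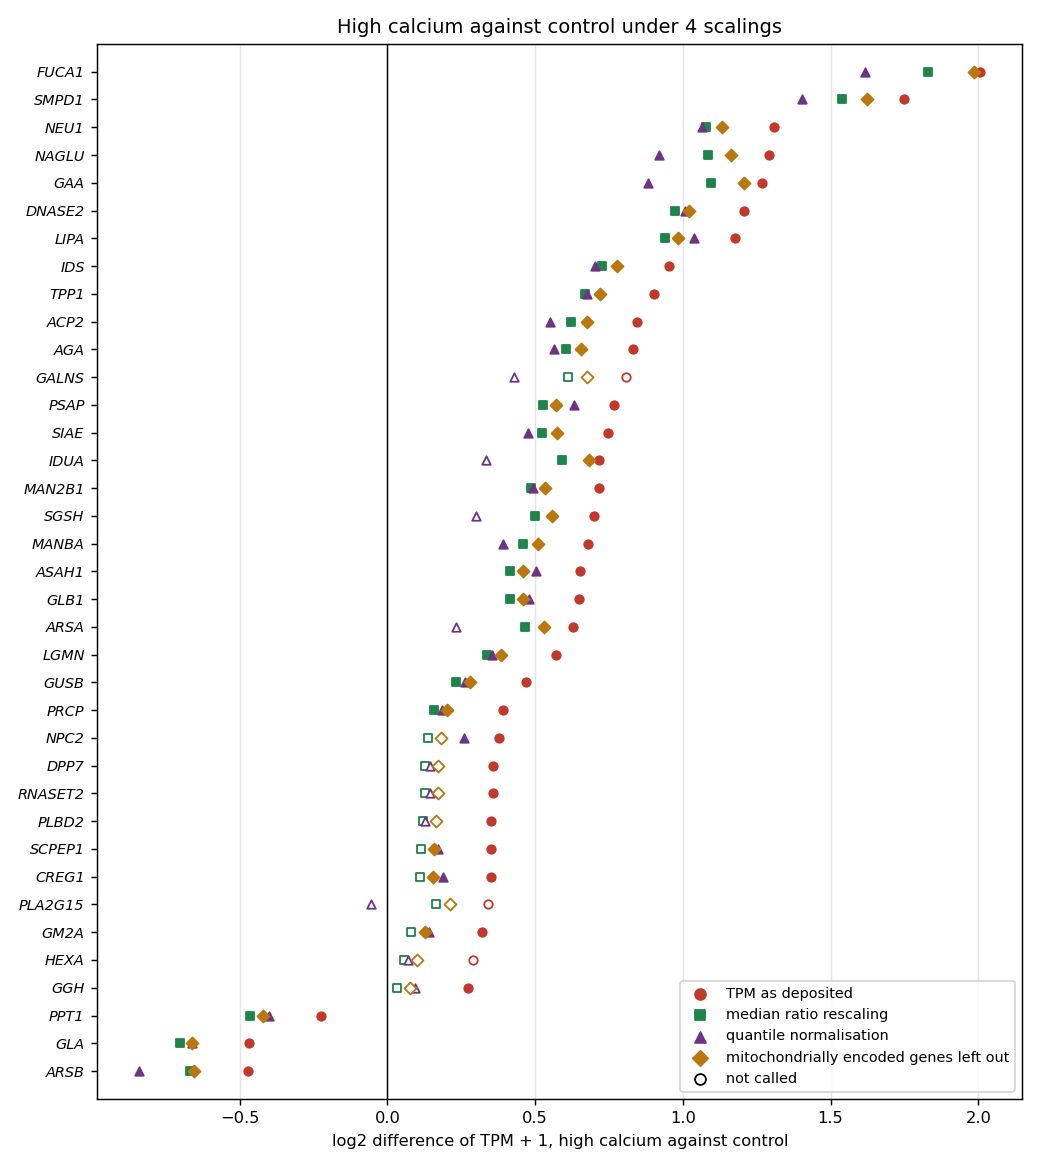
The 37 tested hydrolases in high calcium against control under 4 scalings, with called members marked apart from those not called. In high calcium against control the higher count runs from 31 as deposited to 23 after median ratio rescaling, while the lower count stays at 3.

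Among 22 other lysosomal hydrolases 19 were tested. In high calcium 15 rose, 1 fell and 3 were not called, against 46.1% and 17% of all genes, and after median ratio rescaling 13 rose and 2 fell, against 30.4% and 29.9%. In TGFb3 7 rose and 6 fell, against 26.5% and 33.1%. PLD3, a lysosomal exonuclease, averaged 95.1 TPM in high calcium, 45.0 TPM in TGFb3 and 30.1 TPM in the controls. HPSE, the heparanase that cuts heparan sulfate chains, averaged 13.2, 1.99 and 6.46 TPM in the same order, and differed from control by 0.93 in high calcium and -1.32 in TGFb3. Like SGSH and LIPA, HPSE stood above control in high calcium and below it in TGFb3.

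Of 14 genes that tag, carry and activate the hydrolases, 7 rose, 2 fell and 5 were not called in high calcium, against 46.1% and 17% of all genes. After median ratio rescaling 6 rose and 3 fell, against 30.4% and 29.9%. In TGFb3 5 rose and 3 fell, against 26.5% and 33.1%. As deposited, the high calcium shares lie near those of all genes, and the median log2 difference of the 14 was 0.26, beside 0.22 for all genes. SCARB2, a receptor that carries a hydrolase to lysosomes without the mannose tag, averaged 171 TPM in high calcium, 132 TPM in TGFb3 and 98.8 TPM in the controls. SORT1, the receptor sortilin, rose by 0.92 in high calcium. CLN6, which helps hydrolases leave the endoplasmic reticulum, averaged 16.5 TPM in high calcium, 11.02 TPM in TGFb3 and 20.2 TPM in the controls, and fell by 0.81 in TGFb3. Chosen after their values were seen, the mannose phosphate receptors went apart: IGF2R rose by 0.71 in high calcium and M6PR fell by 0.37. M6PR averaged 64.5 TPM in high calcium, 51.9 TPM in TGFb3 and 84.0 TPM in the controls.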

How the data were processed

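RNA was extracted with Trizol and sequenced on a NovaSeq with paired 101 bp reads, per the labels' protocols. HISAT2 and hg38 are named in the submitters' processing notes; the quantifier, annotation and strand setting were not named there or in the labels. The deposited table holds TPM for 58288 gene entries, summing to 1000000 per sample; entries sharing a symbol were added, giving 56609 symbols. Depth is unknown, so no count model or counting interval was possible.

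Here log2(TPM + 1) was fitted with limma 3.58.1 (R 4.3.3): 3 groups, 9 samples, 6 residual degrees of freedom, empirical Bayes with a trend, two-sided, Benjamini-Hochberg over all 13968 symbols averaging 1 TPM or more. Values for GALC and ACP5 come from the fit without that filter. The fit was also run on simulated data. There few genes changed, evenly up and down, unlike here, so no conclusion about these calls is drawn from that run. The smallest exact permutation p for 3 against 3 would be 0.1.

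The members and lists were chosen with earlier results of these data known. Every member is named; values per sample are given for members called with a log2 difference of at least 0.8, the highest of each substrate class, members called in opposite directions by the treatments, and members whose high calcium call depends on scaling, and, chosen after their values were seen, for GLA, PPT1, MAN2B1, GALNS and ACP5. Alternatives were 3 scalings, 2 pseudocounts, 2 filters, the compared groups alone, no variance trend, a replicate block, and each sample left out. Gene positions were matched by Ensembl identifier without version to GENCODE 29 (hg38).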

Additional observations from a re-analysis of the deposited data

How the results depend on the processing

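Across 19 alternatives the counts of hydrolases called stayed within 1.5 times their main value, except the 4 called lower in high calcium against TGFb3, which became 8 after median ratio rescaling and 7 after quantile normalisation. Leaving out 1 sample in turn gave 30 to 32 higher and 3 lower in high calcium against control, 13 to 15 higher and 8 to 9 lower in TGFb3 against control, and 25 to 26 higher and 4 lower between the treatments. Of all 13968 tested genes, the same fits called 5901 to 6430 higher and 2125 to 2398 lower in high calcium against control. They called 3347 to 3736 higher and 4220 to 4545 lower in TGFb3 against control, and 6526 to 7114 and 2059 to 2309 between the treatments. Of the single-gene log2 differences under the alternatives, 1982 kept their sign and side of the threshold, 47 lost the call, 25 gained one and 31 changed sign, 26 of these being called neither as deposited nor under the alternative. Between the treatments, median ratio rescaling gave GLA -0.25, IDS -0.0074, GGH -0.23, HEXA -0.093, GALNS -0.062 and ACP2 -0.12, quantile normalisation gave GLA -0.22, GGH -0.16, HEXA -0.059, GALNS -0.14 and ACP2 -0.11, and leaving out mitochondrially encoded genes gave GLA -0.16, GGH -0.14, HEXA -0.0037 and ACP2 -0.034, where all were above 0 as deposited. PLA2G15 in high calcium against control turned to -0.055 after quantile normalisation. In TGFb3 against control, NAGLU turned to 0.0021 and DPP7 to 0.035 after median ratio rescaling, and DPP7 to 0.023 after quantile normalisation. Leaving out 1 sample in turn moved uncalled differences across 0 in TGFb3 against control for NAGLU (-0.19 to 0.086), DPP7 (-0.13 to 0.13) and DNASE2 (-0.16 to 0.0026), and between the treatments for IDUA (-0.24 to 0.10), HEXA (-0.0091 to 0.35) and GLA (-0.02 to 0.11). The cause was not tested. Over all tested genes, the replicate numbers did not pair the samples: deviations of same-numbered samples correlated between -0.0747 and -0.00372 over 9 pairs. Single genes can differ from this, and GALNS kept the same order of replicate numbers in every group. With the replicate block, 6258 of the 13968 tested genes were called higher and 2299 lower in high calcium against control. There 32 hydrolases were called higher in place of 31, and the gains were GALNS under both treatments and NEU1 in TGFb3. With TPM alone, what depth limits for genes near 1 TPM, such as GALC, ACP5, IDUA and FUCA1, is unknown.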
